A study of Homo sapiens with 30 samples.

Results

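The enterocyte brush border genes followed here are a list of 31 genes for the proteins that build, fill and maintain the apical surface of the absorptive cell of the gut. Their members were every probe set whose gene symbol in the platform annotation was exactly 1 of the 31 symbols. This found 43 of the 22215 probe sets tested, for 29 of the 31 genes. AMN and GGT1 had no probe set under that rule and were not analysed here. No filter on low values was applied, so all 43 probe sets entered every test. Levels came from 30 arrays of co-cultures of 2 human colon carcinoma lines: Caco-2, which takes on an enterocyte-like form after confluence, and HT29-MTX, a mucus-secreting line. The cultures were seeded as 75% Caco-2 and 25% HT29-MTX and grown for 14 days on Transwell inserts. The exposed groups received multi-walled carbon nanotubes (MWCNT) or titanium dioxide nanobelts (TiO2-NB) apically, at 10 or 100 µg/ml, for 1 or 24 h, and the control group of each time received fresh medium. Each of the 10 groups holds 3 arrays, labelled as biological replicates. The co-culture stands for a mixed epithelium without mesenchymal or immune cells, and each value is a mean over both lines. A lower level can reflect fewer cells of 1 line or less RNA per cell, which cannot be told apart in these samples.

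The brush border is a dense array of microvilli. Each microvillus has a core of actin filaments bundled by villin and plastin 1, tied to the membrane by myosin 1A and ezrin, and neighbouring tips are joined by the protocadherins CDHR2 and CDHR5. The membrane carries peptidases and disaccharidases that finish digestion, and the transporters and receptors that take up their products. CDX1 and CDX2 are homeodomain factors that direct intestinal identity, and with the HNF1 and GATA factors they are known to act on promoters of several of these genes, sucrase-isomaltase among them.

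The values are log2 probe set levels, made by the authors with RMA, so a difference of 1 is a 2-fold difference. Levels are not compared between genes, because probes differ in how strongly they bind; within a gene, probe sets are ordered by mean level only to pick and number them. The median level of an array was 6.45 to 6.49 on all arrays. Levels were looked up for 9 absorptive markers (VIL1, SI, ALPI, ANPEP, DPP4, SLC15A1, FABP1, FABP2, APOA4). All 9 were measured, and their mean levels ran from 5.39 to 13.8. A level below 5.35, under which 1 in 3 probe sets of the arrays lie, is called low here, and 0 of the 9 were low. The 9 goblet markers were measured too, at 4.25 to 13.1 with 1 of them low, as were 8 markers of fibroblasts, endothelium and leukocytes, at 3.25 to 7.70 with 3 low. The 7 colonocyte markers had 5.35 to 12.2 (0 low), 5 stem or proliferation markers 2.85 to 9.24 (3 low) and 3 enteroendocrine markers 4.25 to 5.45 (2 low). Most of the 8 non-epithelial markers were not low either, so these levels do not test which cells were present. Of the 43 brush border probe sets, 7 were low: both probe sets of ENPEP, that of MEP1B, and 1 of several for EZR, SLC15A1, SLC3A1 and SLC26A3.

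Exposure to either particle moved few brush border genes. A call is an adjusted p under 0.05 (limma, with Benjamini-Hochberg adjustment across the 22215 probe sets of a comparison). At 24 h, CUBN fell in TiO2-NB at 100 µg/ml, and this was the only brush border call against a control at that time. At 1 h, MWCNT at 100 µg/ml lowered CDX2 and MYO1A, and both MWCNT doses raised some but not all probe sets of EZR and CDHR5. By the probe set with the highest mean, which stands for each gene, 0 of 29 genes rose in any of the 8 comparisons with control, and CUBN, CDX2 and MYO1A were the 3 that fell. Of all probe sets, 6.46% to 8.43% were called at 1 h and 0.00450% to 3.53% at 24 h. In the 2 comparisons with those falls, 4.27% (MWCNT, 1 h) and 2.80% (TiO2-NB, 24 h) of all probe sets fell. Nothing particular to these genes is read from the low counts. Between the controls of the 2 times 10 of 43 probe sets were called, in a comparison that called 18.1% of all probe sets.

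**Figure D1:**
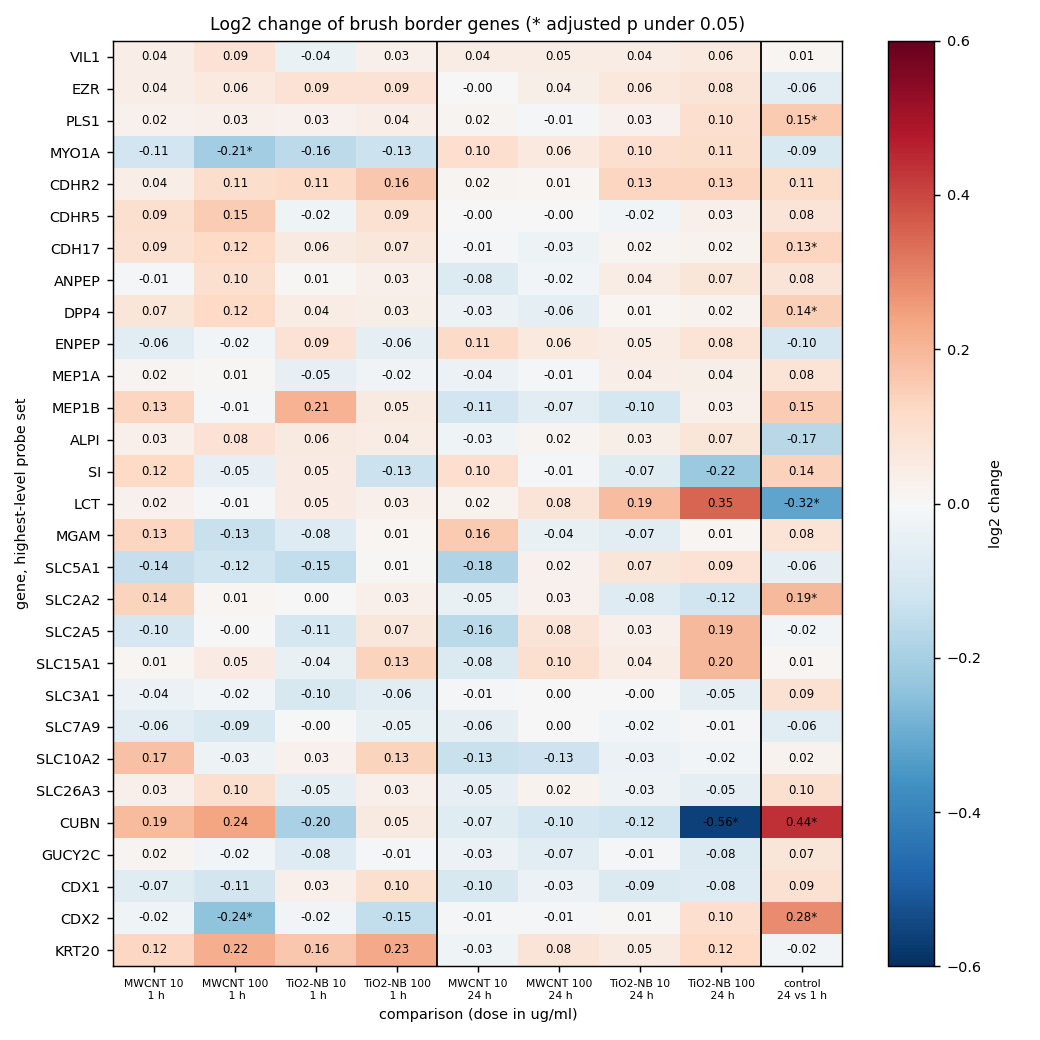
Log2 change of each brush border gene, by its representative probe set, in the 8 comparisons with control and between the controls; colour gives the log2 change and a star a call. The called falls were CUBN (-0.56, TiO2-NB at 100 µg/ml for 24 h), CDX2 (-0.24) and MYO1A (-0.21, both MWCNT at 100 µg/ml for 1 h), and the other calls lie in the column of the controls.

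CUBN encodes cubilin, the large receptor on the apical membrane that takes up intrinsic factor bound to vitamin B12. In the 24 h controls its level was 8.13, 8.14 and 8.08. In the 24 h TiO2-NB group at 100 µg/ml it was 7.70, 7.68 and 7.28. All 3 exposed arrays lay below all 3 controls, and replicate 3 was the lowest of the 30 arrays but for 1 array of the 1 h TiO2-NB group at 10 µg/ml (7.27). The change was -0.56 ± 0.12 (SE, n = 3 a group; 1.48-fold lower; adjusted p = 0.00485, limma). Without replicate 3 of the exposed group it was -0.42, with an adjusted p of 0.0808, and with the 2 compared groups fitted alone the adjusted p was 0.0763. This was 1 call among 43 brush border probe sets (2.33%), in a comparison that called 3.53% of all probe sets, 2.80% lower. The other exposed groups at 24 h gave CUBN levels close to the controls: 8.10, 8.10 and 7.94 with MWCNT at 10 µg/ml, 7.97, 8.14 and 7.93 with MWCNT at 100 µg/ml, and 7.94, 8.08 and 7.96 with TiO2-NB at 10 µg/ml. None of these 3 changes was called.

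CUBN was also the only brush border gene called between the particles. At 100 µg/ml and 24 h it was 0.46 ± 0.12 higher with MWCNT than with TiO2-NB (adjusted p = 0.0366, limma), in a comparison that called 2.88% of all probe sets, 2.15% higher with MWCNT. The MWCNT and TiO2-NB arrays did not overlap, but 0 brush border probe sets were called when any 1 of the 3 MWCNT arrays or TiO2-NB replicate 3 was left out. The step from 10 to 100 µg/ml of TiO2-NB at 24 h was -0.44 ± 0.12, with an adjusted p of 0.0624, in a comparison that called 1.83% of all probe sets. At 1 h the CUBN levels of the controls were 7.47, 7.92 and 7.65, and those with TiO2-NB at 100 µg/ml were 7.56, 7.75 and 7.89. These overlap, and the change at 24 h differed from that at 1 h by -0.62 ± 0.17 (interaction, adjusted p = 0.0309), where 5.84% of all probe sets were called, 2.32% with a negative difference. In 7 of the 12 fits that each left out 1 array of the interaction, 0 brush border probe sets were called (without control replicates 1 or 3 or TiO2-NB replicates 2 or 3 of 1 h, control replicates 2 or 3 or TiO2-NB replicate 3 of 24 h).

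In the cultures where CUBN fell, 1 of 9 goblet markers, MUC5AC, rose (3.53% of all probe sets were called). The median change of the 9 was 0.02, and their mean level was 8.35 to 8.43 over the exposed arrays against 8.27 to 8.33 over the controls. Of the 9 absorptive markers 0 were called by limma, and their mean level was 9.94 to 10.03 against 9.91 to 10.00. Among them VIL1, SI, ALPI, ANPEP, DPP4 and SLC15A1 are also brush border members, so for these genes the marker count repeats the member result. Of the 8 non-epithelial markers 1, CD14, rose, and the mean of the 8 was 5.44 to 5.58 against 5.42 to 5.52. Among control probe sets that bear on RNA quality, the middle 28S ribosomal RNA probe set changed by -0.39, the 5′ and 3′ probe sets of ACTB were 0.13 and 0.10 higher and those of GAPDH 0.04 and 0.04 higher (exact permutation p = 0.1 each, two-sided, the smallest that 3 against 3 arrays allow). The 5′ 18S probe set was 0.19 higher (exact permutation p = 0.5), and with it as a covariate the change of CUBN was -0.60 (adjusted p = 3.75e-04). The part of the goblet markers and of the 28S level in the CUBN result was not tested.

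**Figure D2:**
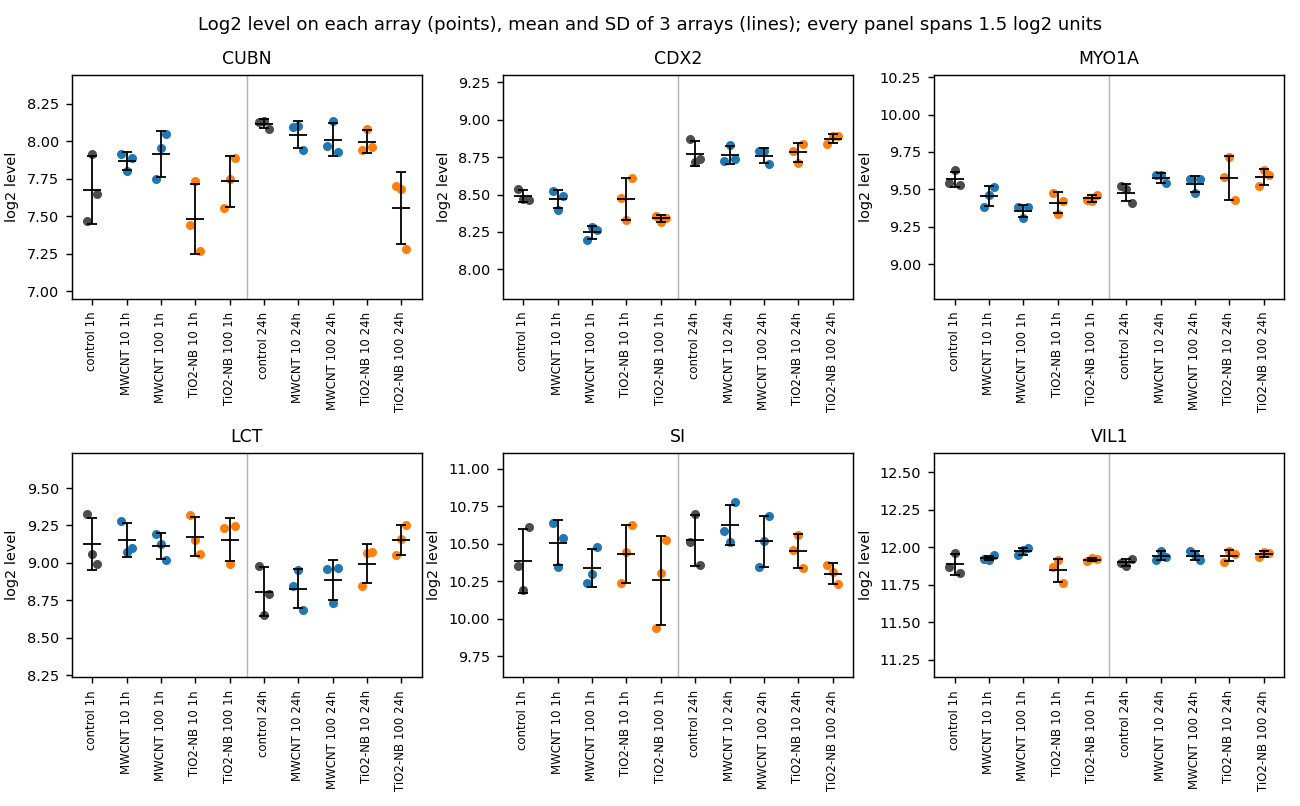
Log2 level of CUBN, CDX2, MYO1A, LCT, SI and VIL1 on each of the 30 arrays, by group. Points are arrays and lines give the mean and SD of 3 arrays. The 3 CUBN arrays of the 24 h TiO2-NB group at 100 µg/ml (7.28 to 7.70) lie below all 3 controls of that time, and all CDX2 arrays at 24 h (8.70 to 8.89) lie above all those at 1 h (8.20 to 8.61).

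The promoters of the 3 genes with a call against a control on their representative probe set are shown here, because CDX and GATA factors are known regulators in this tissue. They are the 250 bases before the RefSeq start (GRCh38.p14), with capitals for any match on either strand to the CDX-like letters (TTTATG, or the same ending in T or A) and to the GATA letters AGATAA.
CUBN (chr10:17129812-17130061, minus strand): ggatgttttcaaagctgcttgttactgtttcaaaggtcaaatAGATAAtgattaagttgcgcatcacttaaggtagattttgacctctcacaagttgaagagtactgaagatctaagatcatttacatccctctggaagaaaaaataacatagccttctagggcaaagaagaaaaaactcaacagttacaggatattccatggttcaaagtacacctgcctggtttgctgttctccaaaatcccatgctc
CDX2 (chr13:27969316-27969565, minus strand): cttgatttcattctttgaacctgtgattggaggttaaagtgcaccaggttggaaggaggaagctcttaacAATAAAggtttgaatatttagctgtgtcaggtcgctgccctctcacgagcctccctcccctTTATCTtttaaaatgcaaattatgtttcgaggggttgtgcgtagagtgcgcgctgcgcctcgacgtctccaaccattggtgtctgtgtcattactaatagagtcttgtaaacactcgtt
MYO1A (chr12:57051199-57051448, minus strand): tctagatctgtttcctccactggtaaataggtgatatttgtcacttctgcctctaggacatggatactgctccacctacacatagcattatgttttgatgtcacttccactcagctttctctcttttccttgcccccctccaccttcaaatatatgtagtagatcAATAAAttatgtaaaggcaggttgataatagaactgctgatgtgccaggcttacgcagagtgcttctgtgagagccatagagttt
CUBN holds 1 GATA match, CDX2 holds 1 CDX-like and 1 GATA match, and MYO1A holds 1 CDX-like match in this stretch.

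The RefSeq promoter table (250 bases before to 50 after a start) held 29 windows for 23 of the 31 brush border genes, against 35116 windows in all. VIL1, CDHR5, CDH17, MEP1A, LCT, SLC3A1, GUCY2C and CDX1 had no entry. The CDX-like letters were found in 48.3% of the brush border windows and in 30.2% of all windows. The GATA letters were found in 17.2% and 10.3%. The HNF1 letters, GTTAAT on either strand, was found in 31.0% of the brush border windows, those of 9 genes, and in 6.88% of all windows. The genes were CDHR2, ANPEP, SI, MGAM, SLC5A1, SLC10A2, SLC26A3, CDX2 and KRT20. In CDX2 it spans the start itself. Of the 3 sets of letters searched, this one had the largest ratio of the 2 shares. The stretches around the HNF1 letters are shown for the other 8 genes, as planned before the search. The letters are in capitals, and the first of 2 matches is given for MGAM and SLC26A3.
CDHR2 (chr5:176549263-176549298, plus strand): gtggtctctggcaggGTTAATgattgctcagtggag
ANPEP (chr15:89806685-89806720, minus strand): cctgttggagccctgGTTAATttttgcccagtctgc
SI (chr3:165078642-165078677, minus strand): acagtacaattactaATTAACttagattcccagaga
MGAM (chr7:141995727-141995762, plus strand): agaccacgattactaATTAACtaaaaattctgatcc
SLC5A1 (chr22:32043201-32043236, plus strand): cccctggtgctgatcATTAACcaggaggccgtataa
SLC10A2 (chr13:103066566-103066601, minus strand): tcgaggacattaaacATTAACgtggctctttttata
SLC26A3 (chr7:107803296-107803331, minus strand): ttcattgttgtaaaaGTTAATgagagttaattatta
KRT20 (chr17:40885360-40885395, minus strand): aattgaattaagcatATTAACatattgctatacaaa
The windows of 1 gene overlap, and a match describes letters and not a bound site. Of the 9 genes with the HNF1 letters, 1 (CDX2) fell with MWCNT at 100 µg/ml for 1 h, where 7.78% of all probe sets were called and 4.27% fell, and 0 changed in the other 7 comparisons with control. Of the 12 measured genes with CDX-like letters, 2 (CDX2 and MYO1A) fell in that comparison and 10 were not called, and nothing is read from counts this small.

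At 24 h the rest of the brush border list gave no call in limma. With MWCNT at 10 µg/ml, 0 of 43 probe sets were called and 2 had an unadjusted p under 0.05, where 0.00450% of all probe sets were called. At 100 µg/ml, 0 were called and 0 had an unadjusted p under 0.05 (0.00900% of all called). With TiO2-NB at 10 µg/ml, 0 were called and 2 had an unadjusted p under 0.05 (0.0585% of all called). The median change of the 43 probe sets was -0.01, 0.00 and 0.01 in these 3 comparisons, and 0.04 with TiO2-NB at 100 µg/ml, beside 0.00, 0.00, 0.00 and 0.01 for all probe sets. These comparisons share the 24 h controls. The 95% intervals set how large an undetected change could be: with MWCNT at 100 µg/ml, all 43 intervals lay within 1.5-fold and 29 of 43 within 1.2-fold in either direction. With TiO2-NB at 100 µg/ml, 42 of 43 lay within 1.5-fold, CUBN being the exception, and 27 of 43 within 1.2-fold. The shares within 1.2-fold, 67.4% with MWCNT and 62.8% with TiO2-NB, lie near the 70.1% and 64.6% of all probe sets. The 43 include 7 low probe sets, where a change can be compressed and a narrow interval sets no such limit.

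**Figure D3:**
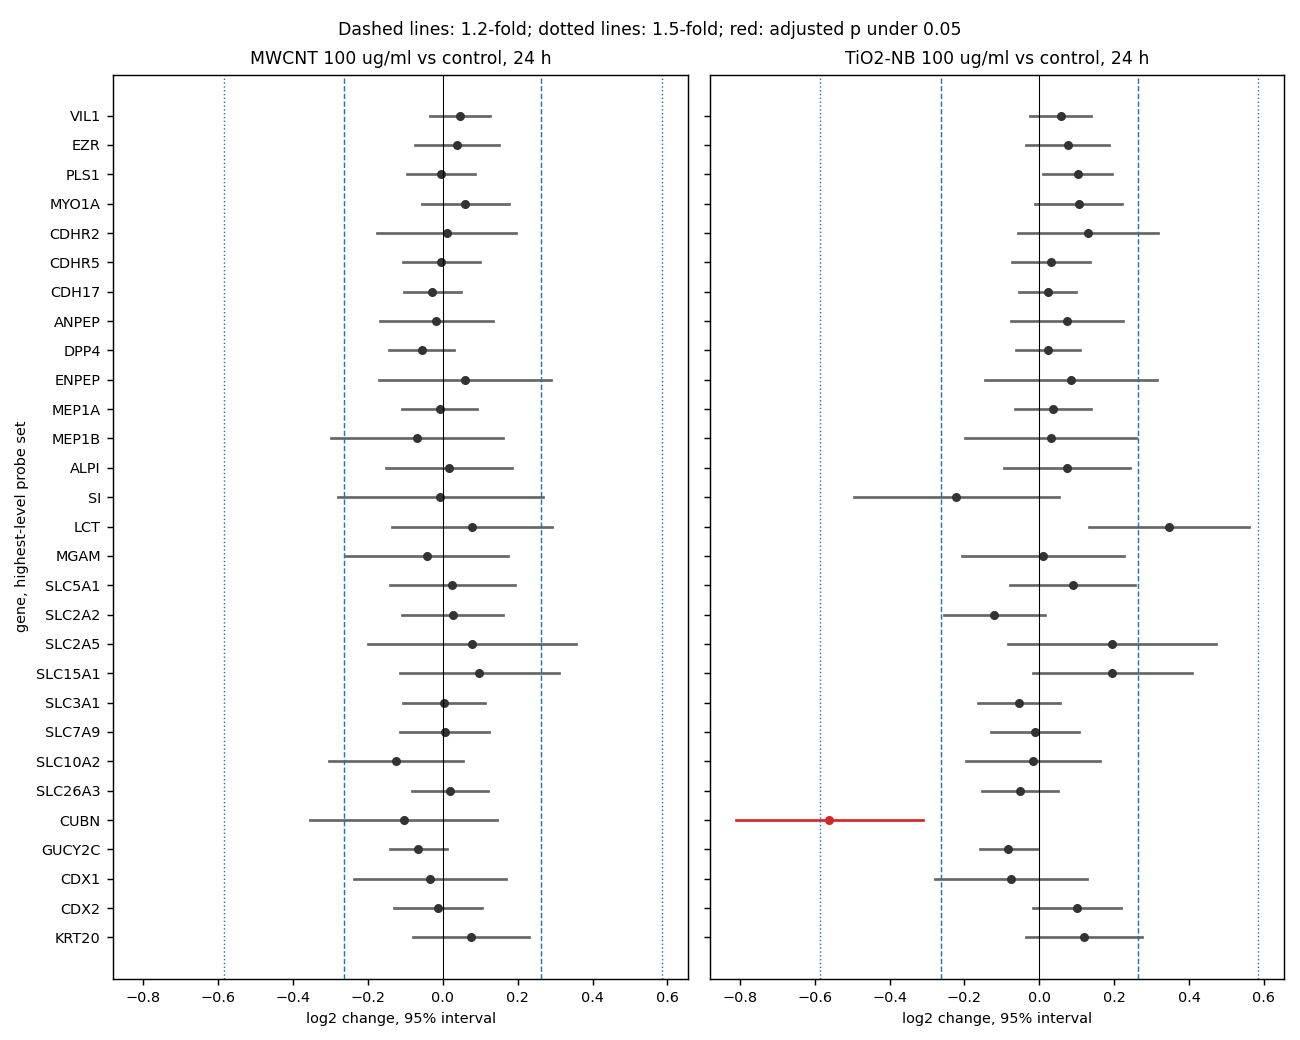
Log2 change with its 95% interval for each brush border gene (representative probe set) in the 24 h comparisons at 100 µg/ml. For MWCNT every interval of the 29 genes lies within 1.5-fold; for TiO2-NB, 28 of 29 do and CUBN (-0.81 to -0.31) does not.

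Among the sugar-splitting enzymes, LCT (lactase) came closest to a call at 24 h. Its level in the 24 h controls was 8.98, 8.65 and 8.79, and with TiO2-NB at 100 µg/ml it was 9.05, 9.16 and 9.25. The exposed arrays were all higher than the controls, by 0.35 ± 0.10, but the adjusted p was 0.0674. SI (sucrase-isomaltase, which splits sucrose and starch fragments) was 10.52, 10.70 and 10.36 in the same controls and 10.36, 10.31 and 10.23 with TiO2-NB, which overlap at 1 array. Its 10 group means ran from 10.26 to 10.62 with a pooled SD of 0.17. MGAM (maltase-glucoamylase) had group means of 5.85 to 6.22, with a pooled SD of 0.14.

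Of the 10 probe sets of the peptidases and the phosphatase, 0 were called in the 8 comparisons with control in limma. Those comparisons called 6.46% to 8.43% of all probe sets at 1 h and 0.00450% to 3.53% at 24 h. Nothing is read from that 0, and ranges are for representative probe sets unless another is named. DPP4, which removes dipeptides from the amino end of peptides, had group means of 12.13 to 12.30 (pooled SD 0.04). ANPEP (aminopeptidase N) had group means of 8.12 to 8.28 (pooled SD 0.09). MEP1A, the alpha subunit of the meprin metalloproteases, had 12.36 to 12.54 (pooled SD 0.06). MEP1B, the beta subunit, had 4.10 to 4.31, and ENPEP (glutamyl aminopeptidase) had 2.81 to 3.00, both at a low level, where a change can be compressed. ALPI, the intestinal alkaline phosphatase, had 7.89 to 8.16 (pooled SD 0.10), and its other probe set, 211618_s_at, had 6.23 to 6.54 (pooled SD 0.11).

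The uptake proteins other than CUBN were not called in any comparison with control. Those comparisons called 6.46% to 8.43% of all probe sets at 1 h and 0.00450% to 3.53% at 24 h. Nothing is read from the lack of calls, and the ranges are for representative probe sets. SLC5A1, the sodium-glucose cotransporter, had group means of 6.92 to 7.19 (pooled SD 0.10). SLC2A2 and SLC2A5, facilitative carriers of glucose and of fructose, had 7.04 to 7.26 and 9.79 to 10.15. SLC15A1 (PEPT1), which takes up dipeptides and tripeptides, had 8.74 to 9.02 (pooled SD 0.13). SLC3A1 and SLC7A9, the 2 subunits of the cystine and basic amino acid transporter, had 11.90 to 12.09 and 10.87 to 10.99. SLC10A2, the bile acid transporter of the ileum, had 7.00 to 7.29, and SLC26A3, the chloride-bicarbonate exchanger, had 12.10 to 12.27. GUCY2C, the guanylate cyclase receptor for guanylin, had 11.40 to 11.55 with a pooled SD of 0.04.

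In the 1 h comparison of MWCNT at 10 µg/ml, 3 of 43 probe sets were called, all higher (6.98%, against 6.46% of all probe sets called and 2.56% called higher). At 100 µg/ml it was 5 of 43, 3 higher and 2 lower (11.6%, against 7.78% of all called, 3.51% higher and 4.27% lower). The overall shares lie near the background, and the 3 higher probe sets of each dose belong to 2 genes, EZR and CDHR5. With TiO2-NB at 10 and 100 µg/ml, 0 of 43 were called in limma, 2 and 6 had an unadjusted p under 0.05, and 7.84% and 8.43% of all probe sets were called. At 1 h the 5′ 18S ribosomal RNA probe set was 1.17 and 1.51 higher with the 2 MWCNT doses, and 0.84 and 0.80 higher with TiO2-NB (exact permutation p = 0.1, 0.1, 0.4 and 0.1, the smallest possible being 0.1). With that level as a covariate, 0 brush border probe sets were called in either MWCNT comparison. Its part in these results was not tested further. All of these 1 h comparisons share the same controls.

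At 1 h, MWCNT at 100 µg/ml lowered CDX2, the homeodomain factor of intestinal identity. Its level was 8.54, 8.47 and 8.46 in the 1 h controls and 8.20, 8.28 and 8.26 with MWCNT at 100 µg/ml. All 3 exposed arrays lay below all 3 controls, by -0.24 ± 0.057 (1.18-fold lower; adjusted p = 0.00922, limma). The call held when any 1 of the 6 arrays was left out, with adjusted p up to 0.0428, but not with the 2 compared groups fitted alone (adjusted p = 0.120). With the 5′ 18S level, 1.51 higher in these arrays than in the controls, as a covariate, the change was -0.15 (adjusted p = 0.410). At 10 µg/ml of MWCNT the levels were 8.52, 8.40 and 8.49, which overlap the controls. The step between the MWCNT doses was -0.22 ± 0.057, with no overlap, but its adjusted p was 0.641 in a comparison that called 0% of all probe sets. With TiO2-NB at 100 µg/ml, CDX2 was 8.36, 8.32 and 8.35, below all controls by 0.15 ± 0.057 on the log2 scale with an adjusted p of 0.113. CDX1, the related factor, was not called in any comparison and had group means of 6.18 to 6.39.

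MYO1A, the motor that links the actin core to the membrane, also fell with MWCNT at 100 µg/ml for 1 h. The controls were 9.54, 9.63 and 9.53, and the exposed arrays 9.38, 9.31 and 9.38. They did not overlap, and the change was -0.21 ± 0.057 (1.16-fold lower; adjusted p = 0.0229, limma). Leaving out replicate 2 of the controls ended the call (-0.18, adjusted p = 0.0973), as did leaving out replicate 2 of the MWCNT group (-0.19, adjusted p = 0.0871) and fitting the 2 compared groups alone (adjusted p = 0.166). With the 18S covariate the change was -0.12 (adjusted p = 0.516). The TiO2-NB groups gave lower values that were not called: -0.16 (adjusted p = 0.0953) with TiO2-NB at 10 µg/ml and -0.13 (adjusted p = 0.186) at 100 µg/ml. The difference between the 24 h and 1 h changes of MYO1A with MWCNT at 100 µg/ml was 0.27 ± 0.080, with an adjusted p of 0.0698, where 2.71% of all probe sets were called.

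Ezrin, which links membrane proteins to actin, is measured by 5 probe sets that did not move alike. The probe set with the highest mean (208623_s_at) was 0.04 and 0.06 higher at 1 h with MWCNT at 10 and 100 µg/ml, and was not called. Probe set 208622_s_at had means of 10.24 in the 1 h controls and 10.31 and 10.37 with the MWCNT doses. The low one, 217230_at, had 5.31, 5.34 and 5.23, and neither was called against the 1 h controls. Probe set 208621_s_at was 7.24, 7.14 and 7.18 in the controls, 7.73, 7.47 and 7.52 with MWCNT at 10 µg/ml, and 7.71, 7.62 and 7.49 at 100 µg/ml. All 6 exposed arrays lay above all controls. The rises were 0.39 ± 0.11 (adjusted p = 0.0331) and 0.42 ± 0.11 (1.34-fold; adjusted p = 0.0175). Probe set 217234_s_at, at 8.31, 8.21 and 8.19 in the controls, was 8.63, 8.58 and 8.56 at 10 µg/ml and 8.77, 8.50 and 8.45 at 100 µg/ml. It rose by 0.35 ± 0.086 (adjusted p = 0.0135) and 0.33 ± 0.086 (adjusted p = 0.0162), again with no overlap. With TiO2-NB at 100 µg/ml the same 2 probe sets were 0.27 and 0.24 higher, with adjusted p of 0.133 and 0.0938. At 24 h, 208621_s_at was 0.40 higher with MWCNT at 10 µg/ml, with arrays apart but an adjusted p of 0.758.

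The probe sets of CDHR5, the protocadherin of microvillar tips, also differed. Its probe set 220075_s_at was 8.05, 8.16 and 7.79 in the 1 h controls, 8.49, 8.18 and 8.32 with MWCNT at 10 µg/ml, and 8.32, 8.33 and 8.35 at 100 µg/ml. The exposed arrays all lay above the controls, and the rises were 0.33 ± 0.099 in each (adjusted p = 0.0472 and 0.0395). Its representative probe set 219796_s_at was 0.15 higher at 100 µg/ml with an adjusted p of 0.0658. The remaining CDHR5 probe set, 220074_at, had means of 10.00 in the 1 h controls and 10.04 and 10.08 with the MWCNT doses, and was not called. CDHR2, the partner of CDHR5, had group means of 7.62 to 7.86 and was not called. With the 18S covariate, at 10 and 100 µg/ml of MWCNT, 217234_s_at was 0.32 and 0.29 higher (adjusted p = 0.124 and 0.281), close to its values without it, while 208621_s_at was 0.26 and 0.25 higher (0.363 and 0.485) and CDHR5 220075_s_at 0.19 and 0.16 higher (0.457 and 0.656). These EZR and CDHR5 calls all ended with the compared groups fitted alone (adjusted p = 0.0548 to 0.218), and each ended in 3 to 5 of the 6 fits that left out 1 array, with adjusted p up to 0.242. For 217234_s_at the arrays were control replicates 2 and 3 and MWCNT replicate 1 at both doses. For 208621_s_at they were all 3 controls and MWCNT replicates 1 and 3 at 10 µg/ml, and control replicate 2 and MWCNT replicates 1 and 2 at 100 µg/ml. For CDHR5 they were control replicates 1 and 3 at both doses, MWCNT replicates 1 and 3 at 10 µg/ml and all 3 MWCNT arrays at 100 µg/ml.

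**Figure D4:**
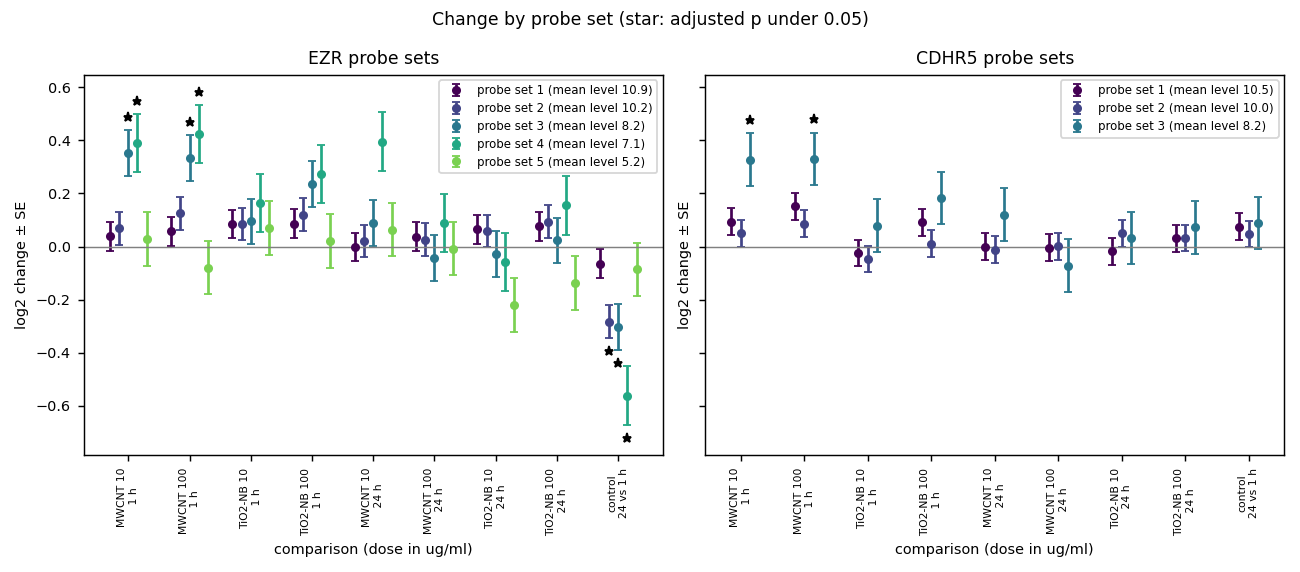
Log2 change (± SE) of each probe set of EZR and CDHR5 in the 8 comparisons with control and between the controls, with a star for a call; probe sets are numbered from the highest mean level. With MWCNT at 100 µg/ml the EZR probe sets 208621_s_at (0.42) and 217234_s_at (0.33) were called and 208623_s_at (0.06) was not.

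Of the remaining structural genes none was called at 1 h on its representative probe set, where 6.46% to 8.43% of all probe sets were called. KRT20, the keratin of differentiated enterocytes, had group means of 11.26 to 11.53 and was 0.23 and 0.22 higher with 100 µg/ml of TiO2-NB and of MWCNT, with adjusted p of 0.0623 and 0.0781. CDH17, the liver-intestine cadherin, had group means of 12.67 to 12.82 and was 0.12 higher with MWCNT at 100 µg/ml, with an adjusted p of 0.0502. VIL1 (villin) stayed between 11.76 and 11.99 on all 30 arrays, and its 10 group means differed by at most 0.13. PLS1 (plastin 1) had group means of 9.67 to 9.93.

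No brush border probe set was called between the doses or, apart from CUBN, between the particles, by limma. From 10 to 100 µg/ml, 3, 4, 3 and 1 of 43 had an unadjusted p under 0.05 (MWCNT 1 h, TiO2-NB 1 h, MWCNT 24 h, TiO2-NB 24 h), while 0%, 0%, 0% and 1.83% of all probe sets were called. Between the particles, 9, 2, 4 and 4 of 43 had an unadjusted p under 0.05 (10 µg/ml at 1 h, 100 at 1 h, 10 at 24 h, 100 at 24 h), while 0.0675%, 0%, 0.0315% and 2.88% of all were called. For CUBN at 10 µg/ml and 1 h the levels were 7.92, 7.80 and 7.89 with MWCNT and 7.44, 7.74 and 7.27 with TiO2-NB. These do not overlap, but the difference of 0.39 had an adjusted p of 0.187. In the other interactions 0 probe sets were called, with 3, 8 and 1 of 43 at an unadjusted p under 0.05 for MWCNT at 10 and 100 and TiO2-NB at 10 µg/ml, where 1.79%, 2.71% and 3.83% of all were called.

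Between the controls, 6 brush border probe sets were higher and 4 lower at 24 h than at 1 h (23.3% of 43, against 18.1% of all probe sets, 7.22% higher and 10.9% lower). CDX2 rose from 8.54, 8.47 and 8.46 to 8.87, 8.72 and 8.73, by 0.28 ± 0.057 (adjusted p = 8.20e-04, limma), and CUBN rose from 7.47, 7.92 and 7.65 to 8.13, 8.14 and 8.08, by 0.44 ± 0.12 (adjusted p = 0.0119). In both genes the 2 times did not overlap. CUBN lost its call without replicate 1 of 1 h (0.33, adjusted p = 0.0836). The 24 h TiO2-NB arrays at 100 µg/ml (7.28 to 7.70) lay in the range of the 1 h controls (7.47 to 7.92) but for 1 array below it. The controls of the 2 times differ in the hours since fresh medium was given and in culture age, which cannot be told apart. They also differed in RNA quality probe sets, at 24 h against 1 h. The middle and 3′ 28S probe sets changed by -0.31 and 0.22, the 5′ and 3′ ones of GAPDH by 0.06 and 0.04 and the 3′ one of ACTB by -0.04 (exact permutation p = 0.1 each, the smallest possible). The part of these differences in the calls was not tested.

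Of the 5 EZR probe sets, 3 fell from 1 to 24 h. Probe set 208621_s_at went from 7.24, 7.14 and 7.18 to 6.57, 6.60 and 6.69, by -0.56 ± 0.11 (adjusted p = 6.38e-04), and 208622_s_at from 10.23, 10.34 and 10.16 to 9.99, 9.98 and 9.90, by -0.28 ± 0.062 (adjusted p = 0.00175). Both calls held without any 1 array. Probe set 217234_s_at was -0.30 (adjusted p = 0.0144), and the representative one, 208623_s_at, was 10.82, 10.89 and 10.85 against 10.83, 10.79 and 10.75, not called. LCT went from 9.33, 9.06 and 9.00 to 8.98, 8.65 and 8.79, by -0.32 (adjusted p = 0.0330). LCT lost its call without replicate 1 of 1 h (-0.22, adjusted p = 0.188) or replicate 2 or 3 of 24 h (-0.24 and -0.31, adjusted p = 0.170 and 0.0877), and that of EZR 217234_s_at without replicate 1 of 1 h or replicate 3 of 24 h (adjusted p = 0.0614 and 0.0536). The smaller rises were in PLS1 (0.15, adjusted p = 0.0164), CDH17 (0.13, 0.0148), DPP4 (0.14, 0.0181) and SLC2A2 (0.19, 0.0400). Each lost its call, as LCT did, with the 2 control groups fitted alone (adjusted p = 0.0769 to 0.148), and in 2 to 4 of the 6 fits without 1 array, with adjusted p up to 0.233. The arrays were replicate 3 of 1 h and 1 and 2 of 24 h for PLS1, replicate 1 of each time for CDH17, replicates 1 and 3 of each time for DPP4, and replicates 1 and 2 of 1 h and 1 and 3 of 24 h for SLC2A2. The probe sets of DPP4 differed: 203717_at was called and 203716_s_at and 211478_s_at were not.

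A wider list of 65 brush border and enterocyte genes, of which 46 were measured, was counted the same way. At 1 h against control, 3, 5, 5 and 4 of 46 were called with MWCNT at 10 and 100 and TiO2-NB at 10 and 100 µg/ml (6.52%, 10.9%, 10.9% and 8.70%), near the 6.46%, 7.78%, 7.84% and 8.43% of all probe sets. KLF5, a zinc finger factor of the epithelium, rose in all 4, by 0.49, 0.41, 0.39 and 0.33, by its representative probe set. Its other probe set was called with MWCNT at 100 µg/ml (0.52) and not with TiO2-NB at 100 µg/ml (0.23). VDR also rose in all 4 by its representative probe set, by 0.18, 0.20, 0.19 and 0.21, and its other probe sets were not called at 1 h. ABCC2 fell at 10 µg/ml of MWCNT (-0.19) and of TiO2-NB (-0.23). PDZK1, a scaffold that binds apical transporters, fell in 3 of the 4 (-0.15 with MWCNT at 100, and -0.22 and -0.17 with TiO2-NB at 10 and 100 µg/ml). APOB, the protein of chylomicrons, rose by 0.37 with MWCNT at 100 µg/ml. Other structural genes of the wider list rose where PDZK1 fell. NHERF1 was 0.16 higher with MWCNT at 100 µg/ml, KRT8 0.14 with TiO2-NB at 10 µg/ml and BAIAP2L2 0.24 with TiO2-NB at 100 µg/ml. These 4 comparisons share the 1 h controls, so they are not independent repeats. The 5′ 18S level was 0.80 to 1.51 higher in the exposed groups of 1 h. Genes of the wider list were not refitted with that level as a covariate, with the compared groups alone or without single arrays. At 24 h, 0 of 46 were called in limma apart from TiO2-NB at 100 µg/ml, where 2 of 46 were called (4.35%, against 3.53% of all probe sets): CES2, a carboxylesterase, fell by 0.37 on the log2 scale and NPC1L1, the cholesterol uptake protein, rose by 0.22. CES2 has 3 probe sets, of which 2 were called and the other (-0.03) was not. In the same comparison 1 of 2 KLF5 probe sets and 1 of 4 VDR probe sets, neither of them the representative one, fell, by 0.66 (adjusted p = 7.18e-04) and 0.68 (adjusted p = 1.95e-05) on the log2 scale, while the representative ones were 0.09 and -0.03 and not called. Between the controls, 5 rose and 5 fell (21.7%, against 18.1% of all probe sets), with the largest changes in KLF4 (-0.67), FABP6 (-0.59), the ileal bile acid binding protein, and KLF5 (0.46, its other probe set being 0.04 higher and not called).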

How the data were processed

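Expression was measured on 30 one-colour Affymetrix arrays, 10 groups of 3 labelled biological replicates; flasks of each line were pooled before seeding, so p-values may measure the spread between wells only. The authors deposited 1 log2 level per probe set and array, made with RMA (background correction, quantile normalisation, median polish), per the submitters' processing notes; the RMA version is not given in the sources used here. Quantile normalisation makes every change relative to the other transcripts. Arrays have no read depth, and their number limits the precision. Of 22277 probe sets, 62 controls were left out. Gene symbols came from the platform annotation: 19064 probe sets carry 1 symbol, 1043 several and 2108 none.

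A mean per group was fitted over all 30 arrays with limma 3.58.1 (lmFit, eBayes; 20 residual and 3.68 prior degrees of freedom) in R 4.3.3, for 21 comparisons, two-sided. An adjusted p under 0.05 (Benjamini-Hochberg over all probe sets of a comparison) is a call, ± is the SE of the log2 change, and intervals are 95%. The script was tested on simulated data. Differences in ribosomal RNA probe sets were tested with exact permutation. The highest correlation between any 2 arrays was 0.999, and no 2 arrays held identical values.

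Each of the 29 measured genes is named with its level. Values on each array are given for members called against a control. Genes of the wider list are named where their representative probe set was called against a control. Between the controls only those with the largest changes are named. The members and all lists were chosen with earlier results of these data known. Alternatives were the compared groups alone, the replicate number as a block, leaving out the 1 in 3 probe sets with the lowest means (below 5.35), quantile normalisation repeated on the deposited values, the 18S level as a covariate, and leaving out each array. Promoter sequences are from RefSeq, GRCh38.p14.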

Additional observations from a re-analysis of the deposited data

Results flagged for a closer look

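CUBN was the only brush border gene whose change with a particle differed between the 2 times in a test of that difference. With TiO2-NB at 100 µg/ml its change at 24 h minus its change at 1 h was -0.62 ± 0.17 on the log2 scale (SE, interaction in limma, adjusted p = 0.0309). The change was -0.56 at 24 h and 0.05 at 1 h. With the compared groups alone, with the 18S covariate and in 7 of 12 fits without 1 array, 0 brush border probe sets were called in this interaction. Groups of 3 arrays are too small for a test of single outlying arrays, so none was made.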

How the results depend on the processing

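Counts are of brush border probe sets called, of 43. With the compared groups alone, the count was 0 for MWCNT at 10 and 100 µg/ml at 1 h (in place of 3 and 5), 0 for TiO2-NB at 100 µg/ml at 24 h, for MWCNT against TiO2-NB at 100 µg/ml at 24 h and for the TiO2-NB interaction at 100 µg/ml (each in place of 1), and 5 between the controls (in place of 10). With the 18S covariate it was 0 for both MWCNT doses at 1 h and for that interaction, and 1 for TiO2-NB at 100 against 10 µg/ml at 24 h (in place of 0). Without the probe sets of low level (mean below 5.35) it was 9 for MWCNT at 100 µg/ml at 1 h, 2 for TiO2-NB at 100 µg/ml at 24 h and for that interaction, and 1 in place of 0 for TiO2-NB at 100 µg/ml at 1 h, for TiO2-NB at 100 against 10 µg/ml at 24 h and for the interactions of MWCNT at 100 and TiO2-NB at 10 µg/ml. This setting adjusts over fewer tests. The second quantile normalisation gave 1 for TiO2-NB at 100 µg/ml at 1 h. The cause of the other moves was not tested.

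Leaving out 1 array gave 0 to 3 calls for MWCNT at 10 µg/ml and 2 to 4 at 100 µg/ml at 1 h, 0 to 1 for TiO2-NB at either dose at 1 h, 0 to 2 for TiO2-NB at 100 µg/ml at 24 h, 0 to 1 for TiO2-NB at 100 against 10 µg/ml at 24 h, for MWCNT against TiO2-NB at 10 and 100 µg/ml at 24 h and for the TiO2-NB interactions at 10 and 100 µg/ml, and 4 to 9 between the controls.

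Whether the replicate numbers pair the arrays was not tested. Deviations were correlated over 0.1 in 18 of 135 same-numbered pairs and 25 of 270 others, with median correlations of 0.008 and -0.006. With the replicate block, 1 brush border probe set was called for TiO2-NB at 100 against 10 µg/ml at 24 h, in place of 0, and the SLC2A2 change between the controls (0.19) had an adjusted p of 0.0504. Direction was followed only for member changes called against a control or between the controls, and none of these reversed under any setting. Of 255 counts, 204 kept within 1.5 times of the reported count and 51 moved. Most comparisons had 0 calls to begin with, and a 0 that stayed 0 is among the 204. That share therefore says little of how firm the calls are. Levels near the background limit what ENPEP and MEP1B can show.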
